A study of Mus musculus with 35 samples.

Results

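Injured mice given unmodified mesenchymal stromal cells (MSCs) were compared with injured mice given only phosphate-buffered saline (PBS), both sampled at 1 week post-injury (wpi). The comparison rests on 10 of the 34 RNA-seq libraries with deposited values, 5 labelled MSC at 1 week and 5 labelled PBS at 1 week, and the members were taken from those labels alone. All 10 mice were male C57BL/6N animals, young adults when the procedures began, and all had a closed head injury (CHI), a diffuse blunt impact to the skull. Some days after the injury each received an injection into the left hippocampus, so the PBS mice share the injury, the needle track and the carrier fluid with the MSC mice and lack only the cells. The tissue was taken from the left hemisphere around the injection site shortly after the injection, and the labels call it left cortex. The injected cells were primary MSCs of C57BL/6N origin bought from 1 vendor as a single lot, so they stand for 1 cell preparation, described as carrying CD29, CD44 and Sca-1 and lacking CD31, CD45 and CD105. Further mice are used below for reference, namely 5 Sham mice that were spared the impact and received no treatment, 5 mice given IL-4 MSCs (the same cells transfected with synthetic interleukin-4 mRNA, a step the unmodified cells did not go through) at 1 wpi, and the 5 MSC and 4 PBS mice sampled at 3 wpi. The Sham group mixes mice of both weeks. Because donor cells and hosts were of the same strain and tissue was sequenced in bulk, a read could not be assigned to an injected or a host cell, and a change in the number of cells cannot be told apart from a change in RNA per cell.

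MSCs are fibroblast-like cells that grow from marrow on culture plastic. They make large amounts of interstitial collagen and other extracellular matrix, which the adult brain parenchyma makes little of outside its meninges and vessel walls. They also keep the Hox code of the limb or trunk position they came from, whereas forebrain cells keep most Hox genes silent. MSCs are also studied as modulators of host immunity, acting on macrophages, microglia and T cells through secreted factors. Transcripts of the matrix and Hox classes and transcripts of host immune cells were therefore examined separately.

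At 1 wpi, 21 of 17131 genes tested were higher in MSC mice than in PBS mice and 0 were lower, which is 0.123% of the genes tested (edgeR quasi-likelihood test, two-sided, Benjamini-Hochberg adjusted p under 0.05; all adjusted p-values below are from this test). At an unadjusted p under 0.05 there were 774 genes, or 4.52%, of which 427 were higher and 347 lower. The median log2 fold change over all genes was 0.0030. Of the 21 genes, 14 encode extracellular matrix proteins, matrix enzymes or the matrix-associated CCN proteins, and 6 of these are collagen chains. The other 7 were the secreted ligand Angpt4, the cell cycle inhibitor Cdkn2a, the homeobox gene Hoxc6, the interferon-inducible gene Ifi202b and the gene copies Eno1b, Gm10260 and Hmga1b. In 15 of the 21 genes the lowest MSC library lay above the highest PBS library, a separation found in 0.496% of all genes tested.

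Levels below are CPM, the reads of a gene scaled to a common library total after TMM normalization, and libraries are given in the order of their labelled replicate numbers, 0 to 4. A pair of libraries stood apart, MSC replicate 2 and PBS replicate 2. MSC replicate 2 had the lowest level of the MSC group in 20 of the 21 genes, and its median excess over the PBS mean was 24.6% of the mean excess of the group, against 184% for replicate 0, 117% for replicate 1, 107% for replicate 3 and 63.9% for replicate 4. PBS replicate 2 had the highest collagen levels of its group. Both libraries also had the highest Il1rn, the interleukin-1 receptor antagonist, with 13.5 CPM in MSC replicate 2 against 0.842 to 1.21 in the other MSC mice and 10.6 CPM in PBS replicate 2 against 0.660 to 1.42 in the other PBS mice. Arg1, arginase of alternatively activated macrophages, was 9.05 CPM in MSC replicate 2 and 6.68 CPM in PBS replicate 2, the highest of each group. Without MSC replicate 2 the count of changed genes was 27 (26 higher, 1 lower), without PBS replicate 2 it was 18, all higher, and without both it was 29, all higher. All 21 genes remained among the 27, 15 among the 18 and 20 among the 29. Both libraries were singled out after their values were seen, so results of fits without them are a description.

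**Figure D1:**
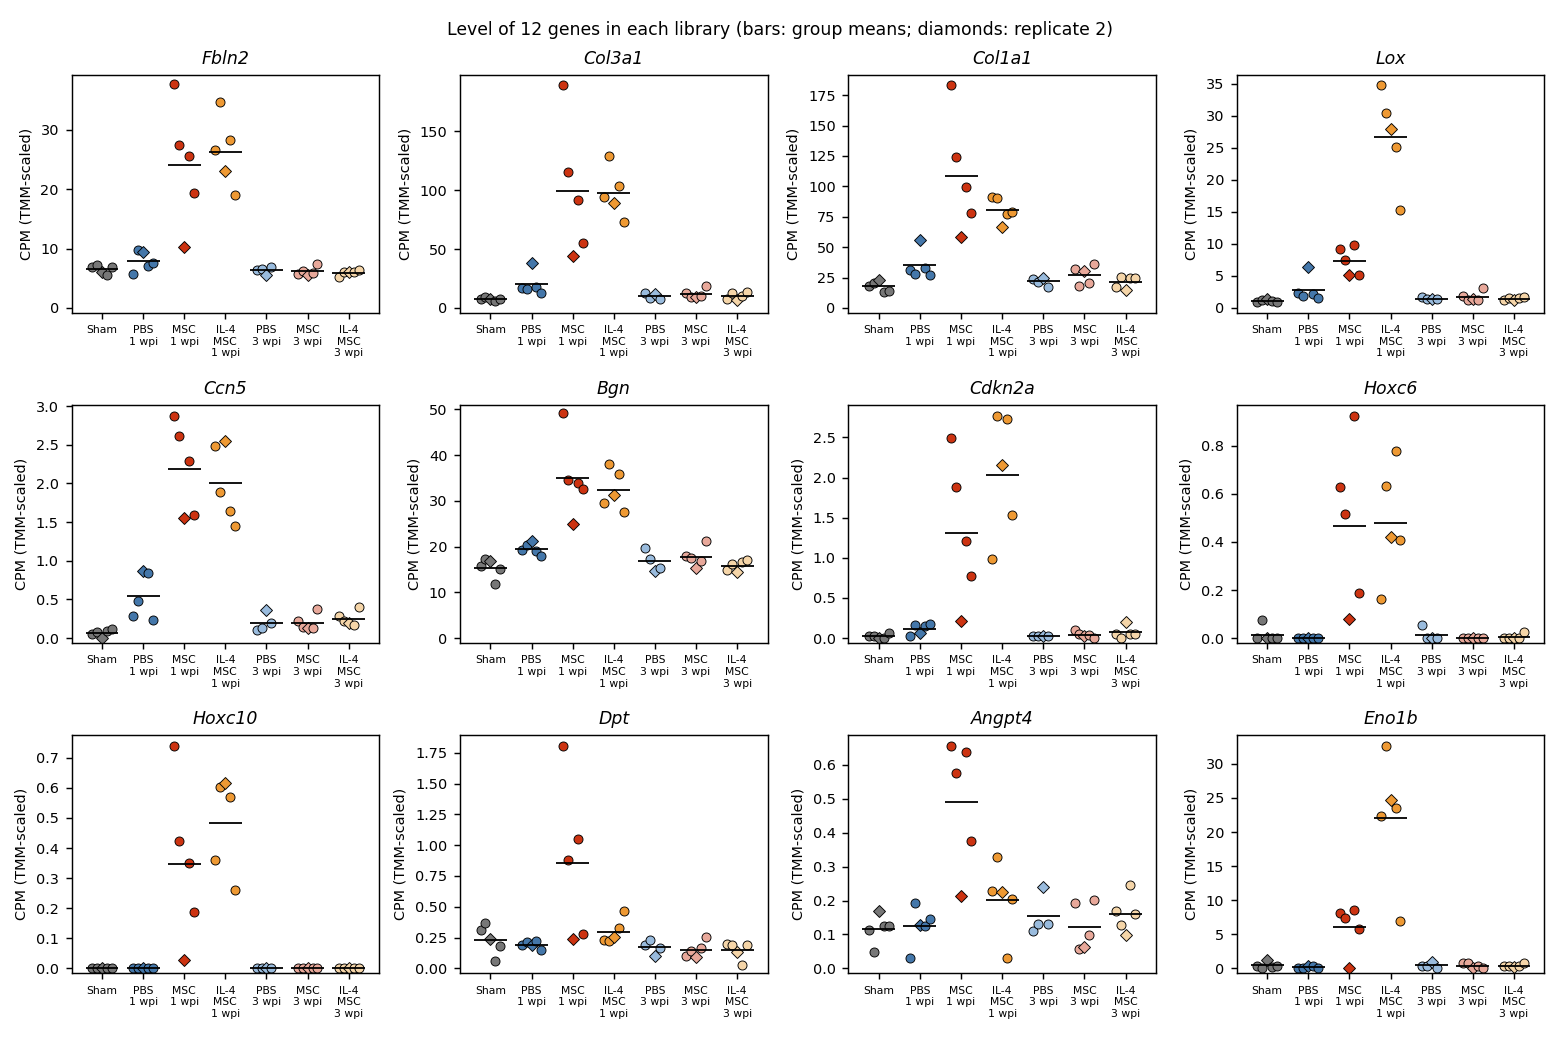
CPM of 12 genes in each library of the 7 groups, with a linear axis from 0 in each panel. Points are single libraries, diamonds mark the replicate numbered 2 and bars are group means. The MSC and IL-4 MSC mice at 1 wpi stood above PBS and Sham for the matrix genes, Cdkn2a and the Hox genes. MSC replicate 2 was close to the PBS mice in most panels, but not for Ccn5. Dpt was high in MSC replicates 0, 1 and 3 and not in IL-4 MSC mice, and all groups at 3 wpi were at low levels.

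Col1a1, Col1a2 and Col3a1, chains of the main fibrillar collagens, had the highest mean CPM among the 21. Col3a1 (chr1:45311538-45349706, GRCm38), the chain of type III collagen, was 189, 115, 44.4, 91.4 and 54.7 CPM in the MSC mice and 17.2, 15.9, 38.0, 17.9 and 12.4 CPM in the PBS mice. Every MSC mouse was above every PBS mouse, but MSC replicate 2 and PBS replicate 2 were close to each other. The log2 fold change was 2.29 ± 0.30 (SE, n = 5 and 5, adjusted p = 9.0e-05), a 4.90-fold difference. Col1a1 and Col1a2 encode the 2 chains of type I collagen. Col1a1 was 183, 124, 58.2, 99.6 and 78.4 CPM in MSC mice and 30.8, 27.9, 56.2, 32.8 and 27.2 CPM in PBS mice. Col1a2 was 211, 139, 61.4, 110 and 96.6 CPM in MSC mice and 38.0, 33.6, 60.6, 39.8 and 33.4 CPM in PBS mice. Neither gene overlapped between the groups, with replicate 2 of each again the nearest pair. Their log2 fold changes were 1.64 ± 0.24 (adjusted p = 0.00040) for Col1a1 and 1.59 ± 0.21 (adjusted p = 9.0e-05) for Col1a2. On the per-length TPM scale, where levels of genes can be compared, Col1a2 reached 52.8 ± 25.2 TPM (SD, n = 5) in MSC mice against 16.9 ± 4.50 TPM in PBS mice, Col3a1 39.5 ± 20.9 against 8.36 ± 3.68 TPM, and Col1a1 38.6 ± 17.1 against 12.4 ± 4.38 TPM.

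The minor fibrillar chain Col5a2, which sets collagen fibril diameter, was 22.6 ± 8.36 CPM (SD) in MSC mice and 11.1 ± 2.52 CPM in PBS mice (log2 fold change 1.02 ± 0.19, adjusted p = 0.0074). Its groups overlapped, since MSC replicate 2 had 12.7 CPM and PBS replicate 2 had 14.1 CPM. The microfibrillar collagen VI was represented by Col6a2 at 29.5 ± 5.29 against 18.6 ± 2.63 CPM (log2 fold change 0.67 ± 0.10, adjusted p = 0.00072) and Col6a3 at 15.2 ± 6.18 against 6.24 ± 0.578 CPM (1.29 ± 0.26, adjusted p = 0.031), with no overlap for either. Lox, lysyl oxidase, cross-links collagen and elastin. It was 9.28, 7.44, 5.15, 9.84 and 5.21 CPM in MSC mice and 2.35, 1.83, 6.33, 2.10 and 1.50 CPM in PBS mice (log2 fold change 1.40 ± 0.28, adjusted p = 0.027). PBS replicate 2 was the only PBS library that reached the MSC range for Lox.

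Fbln2 (chr6:91212455-91272540), the elastic fibre and basement membrane protein fibulin-2, had the smallest p-value of all genes. Its level was 37.7, 27.5, 10.2, 25.6 and 19.4 CPM in MSC mice and 5.64, 9.76, 9.35, 7.07 and 7.53 CPM in PBS mice. The groups did not overlap, although MSC replicate 2 was just above the highest PBS mouse, and the log2 fold change was 1.61 ± 0.20 (adjusted p = 9.0e-05). The small proteoglycan Bgn (biglycan) was 35.0 ± 8.81 CPM in MSC and 19.6 ± 1.29 CPM in PBS mice (0.84 ± 0.12, adjusted p = 0.00044). Thrombospondin 2, Thbs2, which limits vessel growth, was 20.5 ± 4.97 and 13.4 ± 2.34 CPM (0.62 ± 0.12, adjusted p = 0.026) and its groups overlapped. Dermatopontin (Dpt) and the microfibril protein Mfap5 were present at low levels. Dpt was 1.81, 0.880, 0.240, 1.05 and 0.281 CPM in MSC mice and 0.147 to 0.220 CPM in PBS mice (log2 fold change 2.12 ± 0.43, adjusted p = 0.031). In Dpt the excess was carried by replicates 0, 1 and 3, and the other MSC mice were just above the PBS range. Mfap5 was 0.240 to 0.821 CPM in MSC mice and 0.157 to 0.289 CPM in PBS mice, with overlap (1.28 ± 0.28, adjusted p = 0.047).

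The CCN proteins are secreted modulators of growth factor and Wnt signalling. Ccn5 was 2.87, 2.61, 1.55, 2.29 and 1.59 CPM in MSC mice and 0.285, 0.481, 0.867, 0.848 and 0.235 CPM in PBS mice. Its groups were apart even with MSC replicate 2 included (log2 fold change 2.01 ± 0.31, adjusted p = 0.00071). Ccn4 was 5.01 ± 0.989 CPM against 2.62 ± 0.634 CPM (0.94 ± 0.20, adjusted p = 0.047). Angpt4, an angiopoietin that binds the endothelial receptor Tie2, was 0.657, 0.577, 0.214, 0.637 and 0.374 CPM in MSC mice and 0.0317 to 0.192 CPM in PBS mice (1.90 ± 0.40, adjusted p = 0.035). All MSC mice were above all PBS mice for Angpt4, at levels below 1 CPM.

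The list of collagens and matrix genes, chosen with earlier results of these data known, held 28 members, all tested. Of these, 10 were higher (0.123% of all genes were), 0 were lower and 18 had an unadjusted p under 0.05 (64.3%, against 4.52% of all genes). The log2 fold change was above 0 in 26 of 28 (8876 of 17131 over all genes), with a median of 0.42 against 0.0030 over all genes. Members that did not pass included Loxl2 (0.56, adjusted p = 0.084), fibronectin Fn1 (0.44, adjusted p = 0.96) and periostin Postn (0.60, adjusted p = 0.93). Without both libraries that stood apart, 11 of the 28 were higher, and without any other single library 5 to 10 were, with 5 when either MSC replicate 0 or PBS replicate 0 was left out. Fibroblasts of the meninges also make collagen, and their 12 other markers had a median log2 fold change of -0.010 with 0 passing and 0 at an unadjusted p under 0.05. The summed level of those 12 markers was 138 to 197 CPM in MSC mice and 157 to 171 CPM in PBS mice, and none of the 12 was at 0 in either group.

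Hoxc6 (chr15:102998257-103011881), a homeobox gene of thoracic and forelimb level, was the only Hox gene to pass. It had 23, 17, 3, 29 and 6 reads in the MSC mice and 0 reads in each of the 5 PBS libraries. With 3 reads per library taken as the limit that a count of 0 allows, the level was at least 5.24-fold higher in MSC mice (adjusted p = 0.0044); such limits cover counting error only. Posterior Hox genes specify the lumbar, tail and limb levels. Of 16 listed, 11 were in the table and 6 had enough reads to be tested, none of which passed. Among the 6, Hoxc10, Hoxa10 and Hoxa9 had reads in MSC mice and 0 in all PBS libraries. Hoxc10 had 27, 14, 1, 11 and 6 reads (at least 3.88-fold higher, adjusted p = 0.14), Hoxa10 had 17, 15, 0, 4 and 5 reads (at least 2.70-fold, adjusted p = 0.36) and Hoxa9 had 8, 15, 1, 11 and 3 reads (at least 2.57-fold, adjusted p = 0.38). These 3 genes were at 0 in every Sham, PBS and 3 wpi library as well, while the IL-4 MSC mice had 83, 58 and 48 reads in total for Hoxc10, Hoxa10 and Hoxa9. Reads of these 3 genes therefore occurred in mice given cells at 1 wpi and in no other library, and MSC replicate 2, with 1, 0 and 1 reads, was the sparsest of the MSC mice. Without MSC replicate 2, Hoxc10 (adjusted p = 0.012), Hoxa10 (adjusted p = 0.023) and Hoxb9 (adjusted p = 0.0058) passed the threshold. That library had the fewest reads of these genes in its group and was singled out after its values were seen. These calls are therefore a description. The other tested members were Hoxb9, with 4.06 to 20.2 reads in MSC and 2.03 to 6.15 reads in PBS mice (log2 fold change 1.58 ± 0.38, adjusted p = 0.14), Hoxc9 (0.72 ± 0.22, adjusted p = 0.67) and Hoxd9 (-0.19 ± 0.40, adjusted p = 0.996). Members too low to be tested were mixed. Hoxc11 had 2, 2, 0, 1 and 0 reads in MSC mice, 26 in total in IL-4 MSC mice and 0 in every other library. In total over 5 libraries, Hoxc13 had 4 reads in MSC and 0 in PBS mice, Hoxb13 had 1 and 0, Hoxd10 had 1 and 7, and Hoxd13 had 0 in both. Hoxc6, Hoxc10, Hoxa10 and Hoxa9 passed the filter on low counts only through the groups in which they had reads. No share or median over the tested Hox genes is therefore read as a result. Of the 23 other Hox genes, 8 were tested. Hoxc8 had a log2 fold change of 1.56 ± 0.45 (adjusted p = 0.49), and Hoxb1 and Hoxb4 were at -0.016 ± 0.23 and 0.069 ± 0.33. Hoxb3 (0.82 ± 0.92) and Hoxb5 (1.48 ± 1.92) also had reads in mice given no cells. Sham replicate 1 had 58.1 and 45 reads of them, and PBS replicate 0 at 3 wpi had 48.1 and 41. Summed over the 23 genes, the level was 1.87 to 5.30 CPM in MSC and 1.35 to 4.02 CPM in PBS mice at 1 wpi. In Sham mice it was 1.75 to 8.54 CPM.

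Promoters of 12 of the 21 genes were matched in RefSeq, as 14 sequences of GRCm38.p6. The 250 bases before the RefSeq start are shown for Fbln2 and the 2 collagens with the smallest p-values, as the genes with the firmest difference, and for Hoxa9, a gene with reads in mice given cells at 1 wpi and in no other library. They lie at chr6:91212514-91212763, chr1:45311288-45311537 and chr6:4505368-4505617 on the plus strand and at chr6:52227371-52227620 on the minus strand, and the stretches of Fbln2 and Col1a2 fall inside the GENCODE span of the gene, whose start is further upstream. Each is written 5′ to 3′ with capitals marking a match on either strand of 1 of 5 motifs. The motifs searched were the TATA box, spelled TATAAA, then the CCAAT box, spelled as its name, then the GC box, spelled GGGCGG, then the AP-1 motif, spelled TGANTCA, and last the TEAD motif, spelled GGAATG.
Fbln2: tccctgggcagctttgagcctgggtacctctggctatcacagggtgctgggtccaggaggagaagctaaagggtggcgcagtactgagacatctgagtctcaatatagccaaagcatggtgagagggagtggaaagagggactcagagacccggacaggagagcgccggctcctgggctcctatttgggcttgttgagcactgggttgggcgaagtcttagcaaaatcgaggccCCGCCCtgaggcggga
Col3a1: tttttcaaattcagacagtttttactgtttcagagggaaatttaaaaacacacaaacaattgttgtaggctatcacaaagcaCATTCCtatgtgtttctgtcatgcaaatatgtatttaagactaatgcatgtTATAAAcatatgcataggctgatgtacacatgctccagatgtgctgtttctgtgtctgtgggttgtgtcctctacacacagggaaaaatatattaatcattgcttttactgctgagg
Col1a2: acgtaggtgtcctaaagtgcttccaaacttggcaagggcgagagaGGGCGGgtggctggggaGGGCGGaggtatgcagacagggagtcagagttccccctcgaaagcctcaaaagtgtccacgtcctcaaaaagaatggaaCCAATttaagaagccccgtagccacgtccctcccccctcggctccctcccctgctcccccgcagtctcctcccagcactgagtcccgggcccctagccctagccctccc
Hoxa9: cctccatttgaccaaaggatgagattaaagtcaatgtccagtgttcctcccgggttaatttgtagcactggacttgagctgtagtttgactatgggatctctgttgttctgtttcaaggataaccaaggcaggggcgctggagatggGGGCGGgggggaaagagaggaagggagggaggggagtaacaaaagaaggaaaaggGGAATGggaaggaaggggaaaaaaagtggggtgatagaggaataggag
Col3a1 held a TATAAA 117 bases and a TEAD match 168 bases before the start and no CG dinucleotide, Col1a2 held a CCAAT at 109 and GC boxes at 188 and 205 bases, Fbln2 a GC box at 16 bases, and Hoxa9 a GC box at 103 and a TEAD match at 48 bases. Among the 14 sequences, 3 held TATAAA against 12.4% of all 32851 promoters, 2 held CCAAT against 33.8%, 7 held GGGCGG against 32.7%, 1 held TGANTCA against 6.75% and 3 held GGAATG against 12.6%. Matched letters are a description and do not show that a factor binds there.

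Cdkn2a (chr4:89274471-89294653) encodes the cell cycle inhibitors p16INK4a and ARF, which accumulate in cultured and senescent cells. It was 2.49, 1.88, 0.214, 1.21 and 0.780 CPM in MSC mice and 0.0317, 0.168, 0.0643, 0.157 and 0.176 CPM in PBS mice. All MSC mice were above all PBS mice, with MSC replicate 2 only just so, and the log2 fold change was 3.39 ± 0.51 (adjusted p = 0.00061), a 10.5-fold difference. The neighbouring inhibitor gene Cdkn2b, looked at after the values were seen, had a log2 fold change of 0.41 ± 0.22 (adjusted p = 0.996). None of the 24 cell cycle genes passed and none had an unadjusted p under 0.05, with a median of 0.056.

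Among the 21 genes, 3 are copies of other genes and their values are uncertain. Of the 31-base words in their transcripts, 81.8% of those of Eno1b, an enolase retrocopy, also occur in Eno1, 92.7% of those of Hmga1b in Hmga1, and 68.7% of those of Gm10260, a predicted gene, in the ribosomal protein gene Rps18. The other 18 genes shared at most 0.501% of their words with another gene. Eno1b was 8.18, 7.44, 0.107, 8.54 and 5.74 CPM in MSC mice and 0 to 0.314 CPM in PBS mice (log2 fold change 5.37 ± 0.86, adjusted p = 0.0012). Gm10260 was 3.12, 2.22, 0.294, 3.03 and 1.50 CPM in MSC mice and 0 to 0.288 CPM in PBS mice (3.66 ± 0.56, adjusted p = 0.00071). Hmga1b was listed at 0 in all 5 PBS libraries and at 0.160 to 1.15 CPM in MSC mice (adjusted p = 0.043), and it was also above 0 in 3 of 5 Sham libraries. In Eno1b, replicate 2 was the single MSC mouse within the PBS range. The source genes, looked at after the values were seen, had log2 fold changes of -0.027 ± 0.037 for Eno1, -0.050 ± 0.055 for Hmga1 and 0.088 ± 0.045 for Rps18, none of which passed. Ifi202b, a DNA sensor of the p200 family whose expression differs between inbred mouse strains, was 0.684, 0.304, 0.0534, 0.637 and 0.312 CPM in MSC mice and 0 to 0.129 CPM in PBS mice (3.35 ± 0.63, adjusted p = 0.012), and shared none of its words with another gene.

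Just outside the threshold stood Casp12 (log2 fold change 0.69 ± 0.15, adjusted p = 0.054), Rarg (0.33 ± 0.07, adjusted p = 0.079), Loxl2 (adjusted p = 0.084), Sema3d (-0.31 ± 0.07, adjusted p = 0.097) and Hoxc10 (adjusted p = 0.14). None of the genes for surface proteins used to describe the injected cells passed. Itgb1 (CD29) was at 0.075 (95% interval -0.048 to 0.20), Cd44 at -0.0087 (-0.40 to 0.38) and Ly6a (Sca-1) at 0.32 (-0.12 to 0.75) on the log2 scale. For proteins the cells were described as lacking, the values were 0.082 (-0.081 to 0.24) for Eng (CD105), 0.13 (-0.054 to 0.31) for Pecam1 (CD31) and 0.018 (-0.47 to 0.50) for Ptprc (CD45). All 6 genes were above 10 CPM on average in PBS mice. Il4 had 27 reads in total over the 5 MSC libraries and 20 over the 5 PBS libraries and was too low to be tested.

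Other lists of mesenchymal genes gave no passing member. Of 29 mesenchymal transcription factors tested, 0 passed and 5 had an unadjusted p under 0.05, among them Prrx2 (0.62 ± 0.18, adjusted p = 0.52), Twist1 (0.59 ± 0.23, adjusted p = 0.99) and Hmga2 (0.67 ± 0.24, adjusted p = 0.91). All 19 contractile and cytoskeletal genes of cultured stroma had log2 fold changes above 0, with a median of 0.21, 6 at an unadjusted p under 0.05 and 0 passing; smooth muscle actin Acta2 was at 0.46 ± 0.16 and annexin Anxa1 at 0.77 ± 0.23. Among 15 matrix proteases and inhibitors the median was 0.17, with Mmp2 at 0.42 ± 0.14, Mmp14 at 0.34 ± 0.11 and Plau at 0.43 ± 0.13, none of them passing. The 22 MSC secreted factors tested (median 0.067), the 13 MSC surface markers (0.075) and the 12 bone, cartilage and fat genes (-0.043) each had 1 gene at an unadjusted p under 0.05 and 0 passing. Over the 162 tested genes of the mesenchymal lists that are not Hox genes, 10 passed, all of them collagens and matrix genes, and 36 had an unadjusted p under 0.05 (22.2%, against 4.52% of all genes), all 36 with higher values in MSC mice. These lists were chosen with earlier results of these data known, so their shares are a description.

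**Figure D2:**
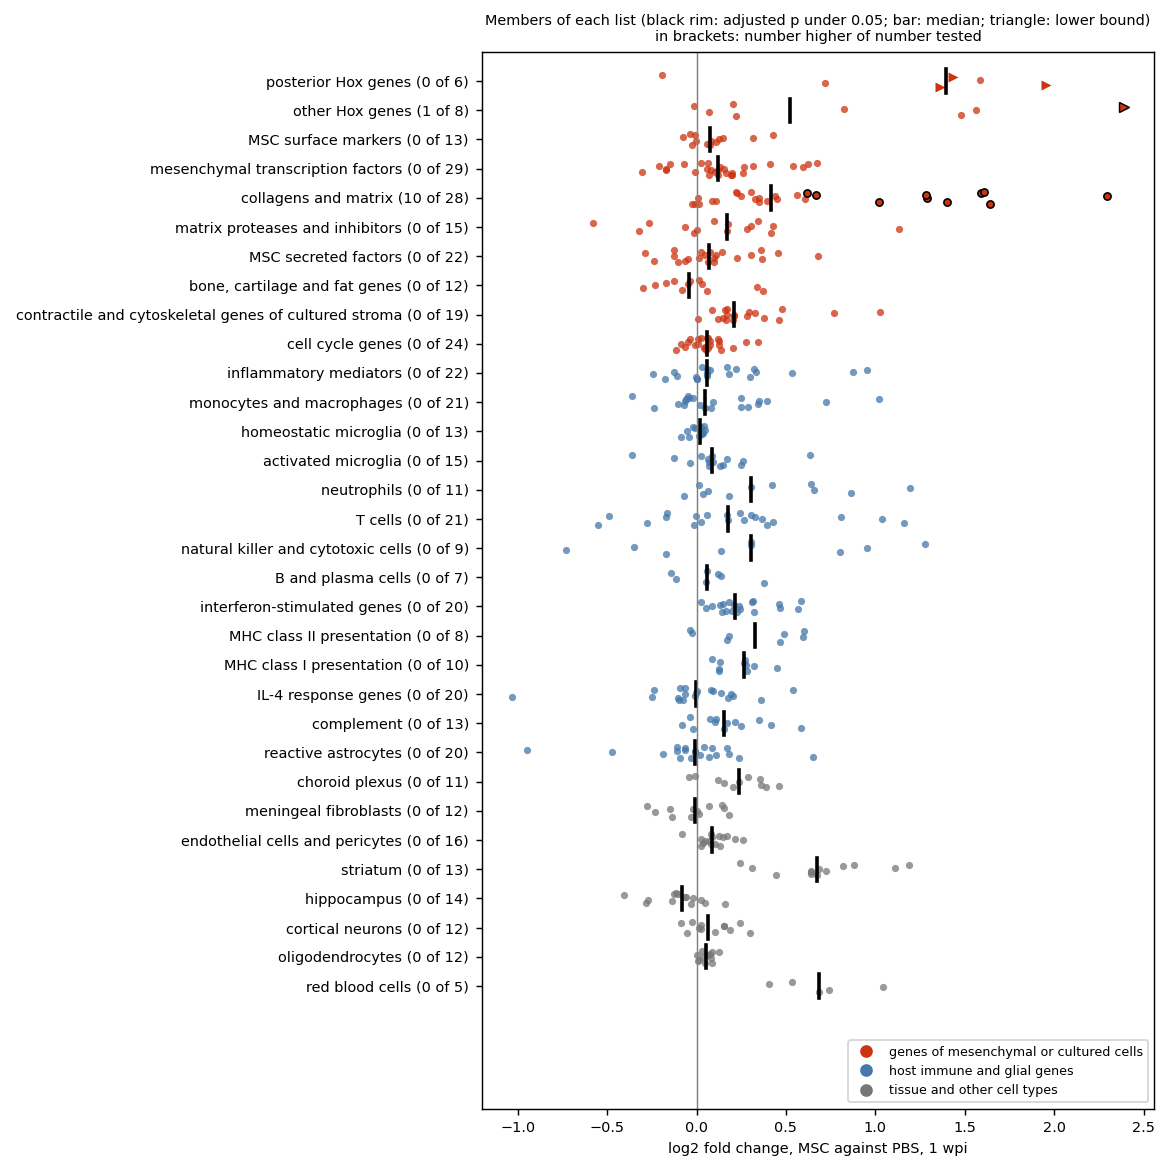
Log2 fold change of each tested list member in MSC against PBS mice at 1 wpi, 1 row a list. Colours mark the side of the list, a black rim marks an adjusted p under 0.05, triangles are lower bounds and bars are medians. The rimmed points are 10 of 28 collagens and matrix genes and 1 of 8 other Hox genes, and no host list holds one. The Hox rows hold tested members only, so their bars and counts are not read as results.

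Host immune and glial genes were read from 14 further lists. Their members Cd44, Csf1, Lpl, Mmp9, Ptgs2, Spp1, Timp1 and Vim are also on mesenchymal lists and are counted on both sides. Of 202 tested genes, 0 passed in either direction and 8 had an unadjusted p under 0.05, which is 3.96% against 4.52% of all genes. The number at an unadjusted p under 0.05 depended on the fit. It was 7 to 24 with 1 library left out, and 24 was the value without PBS replicate 2. It was 23 of 192 with the 1 week and Sham libraries alone and 21 of 175 with the 10 libraries alone. With a replicate block in those 10 libraries it was 29 of 175. The host counts were thus larger in the fits of fewer groups. Shares over all genes are not set beside these counts, so 3.96% against 4.52% holds for the fit of all 34 libraries alone. Whether the host lists stood above the share of all genes in the other fits is not shown here. DESeq2 called 0 of the 202 and limma voom called 1, the astrocyte gene Emp1. The medians lay near 0 for inflammatory mediators (0.059), monocytes and macrophages (0.046), homeostatic microglia (0.018), activated microglia (0.085), IL-4 response genes (-0.0048) and reactive astrocytes (-0.0085), and at 0.30 for neutrophils, 0.17 for T cells, 0.30 for natural killer and cytotoxic cells, 0.056 for B and plasma cells, 0.22 for interferon-stimulated genes, 0.32 for MHC class II, 0.27 for MHC class I and 0.15 for complement. For MHC class II the summed level was 80.3 CPM in MSC replicate 2 and 34.9 to 39.1 CPM in the other MSC mice. In PBS mice it was 32.8 to 40.7 CPM, so only MSC replicate 2 lay above the PBS range. All 20 interferon-stimulated genes and all 10 MHC class I genes had log2 fold changes above 0, as did 8876 of the 17131 genes tested, and none of these 30 passed.

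Among the members with the smallest p-values, Irf7, the master regulator of type I interferon, was 8.43, 9.35, 7.13, 12.1 and 9.11 CPM in MSC mice and 5.26, 3.53, 8.96, 6.53 and 6.63 CPM in PBS mice. These ranges overlapped and the log2 fold change was 0.58 (95% interval 0.15 to 1.01, adjusted p = 0.93). The T cell chemokine Ccl5 was 1.07, 1.43, 0.747, 1.85 and 1.59 CPM in MSC mice and 0.761, 0.457, 0.546, 0.942 and 0.733 CPM in PBS mice (0.96, 0.20 to 1.71, adjusted p = 0.99). Only MSC replicate 2 fell within the PBS range for Ccl5. C1s1, a protease of the complement cascade, was 3.65 ± 0.395 CPM against 2.43 ± 0.240 CPM without overlap (0.59, 0.18 to 0.99, adjusted p = 0.79), and Emp1, an epithelial membrane protein of reactive astrocytes, was 9.22 ± 1.86 against 5.87 ± 1.97 CPM (0.65, 0.28 to 1.02, adjusted p = 0.41). Ptx3, a pentraxin of the innate response, was 1.53, 1.24, 6.70, 1.11 and 1.22 CPM in MSC mice and 2.00, 4.06, 8.10, 3.52 and 5.45 CPM in PBS mice (-0.95, -1.79 to -0.11, adjusted p = 0.996). MSC replicate 2 was far above the other MSC mice. Without it Ptx3 was lower in MSC mice (log2 fold change -1.85 ± 0.36, adjusted p = 0.015). It was the 1 host gene of 202 to pass without that library, where 27 of all genes passed. The library was singled out after its values were seen, so this call is a description. Gbp2b, which is on none of the lists, was higher in MSC mice in that fit (3.28 ± 0.67, adjusted p = 0.020). With PBS replicate 2 left out, or both left out, 0 of the 202 passed.

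PBS and Sham mice differ by the injury and the injection together. Between them, where 8.73% of all genes were higher, 124 of the 202 host genes were higher in PBS mice and 1 was lower, with a median log2 fold change of 1.03. All 20 interferon-stimulated genes, 10 of 10 MHC class I genes, 15 of 15 activated microglia genes, 17 of 22 inflammatory mediators, 16 of 20 reactive astrocyte genes and 15 of 21 monocyte and macrophage genes were higher in PBS mice. In IL-4 MSC against PBS mice, where 11.2% of all genes were higher, 124 of the 202 were higher and 2 were lower. These comparisons share the PBS libraries with the MSC comparison and are given side by side only. Arg1, for example, averaged 0.181 CPM in Sham, 2.37 in PBS, 2.95 in MSC and 146 CPM in IL-4 MSC mice, and the MSC against PBS log2 fold change was 0.36 (95% interval -0.66 to 1.38).

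**Figure D3:**
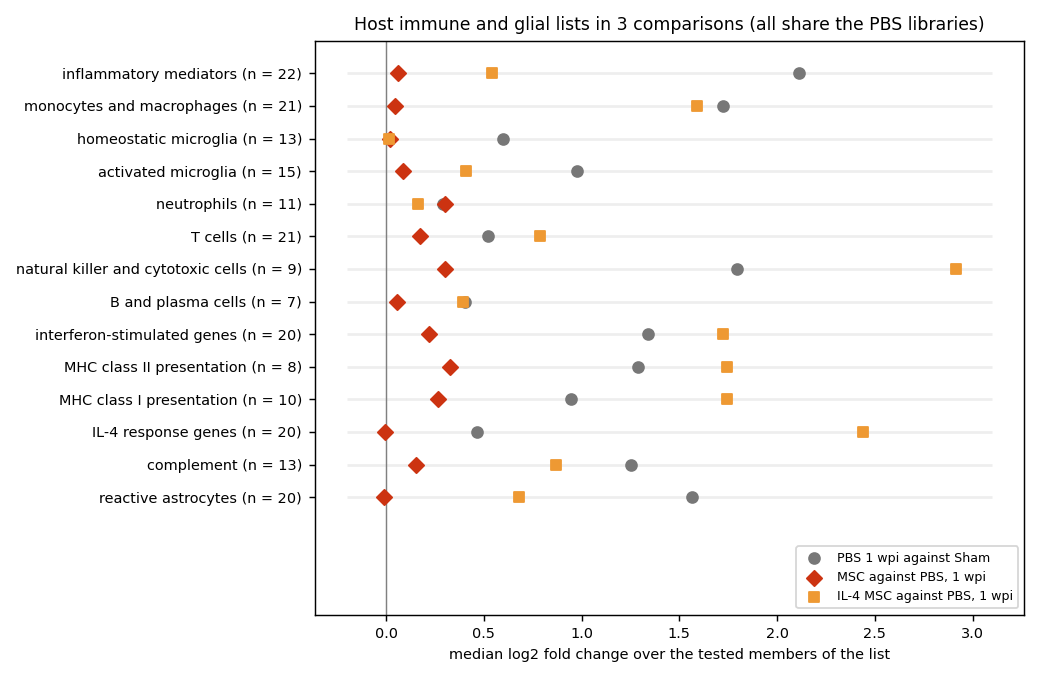
Median log2 fold change over the tested members of each host immune and glial list in PBS against Sham mice (circles), MSC against PBS mice (diamonds) and IL-4 MSC against PBS mice (squares) at 1 wpi, with the number of members tested in brackets. Diamonds lie between -0.0085 and 0.32, and circles reach 2.11.

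Markers of neighbouring regions were measured because the piece of tissue could differ between mice. All 13 striatum markers had log2 fold changes above 0 (median 0.67), 0 passed and 1 had an unadjusted p under 0.05. Their summed level was 893, 695, 1033, 418 and 309 CPM in MSC mice, 362 to 501 CPM in PBS mice and 283 to 1043 CPM in Sham mice, with none of the 13 at 0. The medians were -0.084 for 14 hippocampus markers, 0.066 for 12 cortical neuron markers, 0.055 for 12 oligodendrocyte markers, 0.24 for 11 choroid plexus genes, 0.084 for 16 endothelial and pericyte genes and 0.69 for 5 red blood cell genes, with 0 passing in each. With the mean striatum marker level as a covariate, 17 genes were higher and all 17 were among the 21, and with the hippocampus markers 18 were higher, 17 of them among the 21. The part of these regions in the results was not tested beyond those fits.

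Mice given IL-4 MSCs received the same cell type and were compared with the same PBS libraries that had chosen the 21 genes, so their count is a description. In IL-4 MSC mice 18 of the 21 were higher than in PBS mice, where 11.2% of all genes were. Dpt, Angpt4 and Mfap5 did not pass there. Dpt was 0.219 to 0.465 CPM in IL-4 MSC mice and was lower than in MSC mice (log2 fold change -1.50 ± 0.41, adjusted p = 0.014), and Angpt4 was likewise lower (-1.25 ± 0.37, adjusted p = 0.026). A set of 4 genes was higher in IL-4 MSC than in MSC mice, where 7.66% of all genes were, made up of Lox (1.86 ± 0.26, adjusted p = 4.4e-06), Ifi202b (1.60 ± 0.38, adjusted p = 0.0046) and the copies Eno1b (1.88 ± 0.54, adjusted p = 0.024) and Hmga1b (2.08 ± 0.57, adjusted p = 0.020). Lox was 15.3 to 34.8 CPM in IL-4 MSC mice, above every MSC mouse. Col3a1 (-0.021 ± 0.28), Hoxc6 (0.061 ± 0.48) and Cdkn2a (0.63 ± 0.37) did not pass between the types of injected cell.

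Some of the 21 genes also differed between mice that received no cells. PBS mice were higher than Sham mice in 5 of the 21 genes, where 8.73% of all genes were, namely in Col3a1 (log2 fold change 1.41 ± 0.33), Col1a1 (0.97 ± 0.25), Ccn5 (2.87 ± 0.48), Lox (1.27 ± 0.33) and Col5a2 (0.57 ± 0.19). MSC mice were higher than Sham mice in 20 of the 21, where 11.0% of all genes were, the exception being Hmga1b (2.03 ± 0.76, adjusted p = 0.066). Both counts share libraries with the comparison that had chosen the 21 genes, so they are a description. Cdkn2a averaged 0.0230 CPM in Sham, 0.119 in PBS and 1.32 CPM in MSC mice.

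At 3 wpi none of the 21 genes passed. MSC mice were higher than PBS mice in 14 genes, or 0.0817% of those tested, and 0 of these were among the 21; the 21 genes had a median log2 fold change of -0.030 and 0 had an unadjusted p under 0.05. Col3a1 was 8.97 to 18.4 CPM in MSC and 7.79 to 12.6 CPM in PBS mice at 3 wpi, Fbln2 was 5.50 to 7.39 and 5.52 to 6.83 CPM, and Hoxc6, Hoxc10, Hoxa10 and Hoxa9 had 0 reads in all 5 MSC libraries. Among the 14 were 8 of the 202 host genes, from the lists of T cells, cytotoxic cells, MHC presentation and inflammatory mediators. MSC replicate 4 of that week had the highest summed level of its group in each of these lists, with 9.08 CPM for cytotoxic cells (others 1.39 to 2.74), 143 CPM for MHC class II (others 33.7 to 56.3) and 462 CPM for MHC class I (others 234 to 271). Without it 9 genes were higher, all among the 14. Tested as a difference between the weeks, 0 genes passed, with 572 at an unadjusted p under 0.05, and 19 of the 21 were among those with an unadjusted p under 0.05. This test holds the 1 wpi libraries that had chosen the 21 genes, so every count of the 21 in it is a description. DESeq2 called 6 genes in this test, of which 5 (Fbln2, Col1a2, Col3a1, Col5a2 and Gm10260) were among the 21 and larger at 1 wpi, and H2-Q7 was the other. Without MSC replicate 2, 7 genes passed, without PBS replicate 2, 3 passed (Fbln2, Col1a2 and Col3a1) and without both, 9 passed, all of them among the 21 and larger at 1 wpi. The count at 3 wpi ran from 1 to 28 as single libraries were left out, with 1 gene remaining without PBS replicate 0 or without PBS replicate 2 of that week.

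Calls at 1 wpi rested on the spread pooled over all 34 libraries. When only the 10 libraries of the comparison were fitted, 0 genes passed and 722 had an unadjusted p under 0.05; 13 of the 21 were tested there, all 13 with positive log2 fold changes and unadjusted p-values of 5.2e-05 to 0.0021. A two-sided exact permutation test of single genes with 5 against 5 libraries can give no p below 0.0079, the value for any gene whose groups do not overlap. Leaving out any 1 of the 10 libraries gave 11 to 27 genes. The count was 11 without PBS replicate 0, 12 without MSC replicate 0 or PBS replicate 1, and 13 without MSC replicate 1 or 3 or PBS replicate 3 or 4. Bgn, Ccn5, Cdkn2a, Col1a1, Col1a2, Col3a1, Col6a2, Eno1b, Fbln2, Gm10260 and Hoxc6 kept an adjusted p under 0.05 in all of these, whereas the other 10 lost it in some or most. Col5a2 kept it in 8 of these 10 fits, Ifi202b and Thbs2 in 4, Lox in 3, Angpt4, Ccn4, Col6a3, Dpt and Hmga1b in 2 and Mfap5 in 1.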

How the data were processed

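RNA from tissue around the injection site was sequenced in paired-end reads and, per the methods and the submitters' processing notes, trimmed with cutadapt 2.4, checked with FastQC 0.11.8, quantified with kallisto 0.46 against protein-coding GENCODE vM23 transcripts and tested with sleuth 0.30 in R 3.6.1. The authors deposited 1 table of 21203 genes with kallisto's estimated counts and TPM for 34 libraries. Its columns of the authors' own fold changes, p-values and q-values were not used. One sample labelled PBS at 3 wpi has no column and was not analysed here. Summed estimated counts were 31026151 to 36812413 in the 5 MSC and 31269634 to 40748040 in the 5 PBS libraries at 1 wpi, so that 3 reads, the limit a count of 0 allows, corresponded to 0.0721 to 0.0964 CPM in PBS libraries.

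Estimated counts were rounded. Genes were filtered with filterByExpr, scaled by TMM and tested with edgeR 4.0.16 (glmQLFit, glmQLFTest; R 4.3.3) in 1 fit of all 34 libraries in 7 groups, two-sided, with Benjamini-Hochberg adjustment over 17131 genes and a threshold of 0.05. SE is the log2 fold change divided by the square root of F, and intervals are 95%. DESeq2 1.42.0, limma 3.58.1 and other settings are alternatives. Named were all genes that passed (up to 40), up to 4 members of each list by p, the 5 genes just outside the threshold, the stated markers of the cells, Il4 and every posterior Hox gene. Eno1, Hmga1, Rps18, Cdkn2b, Il1rn, Arg1, Gbp2b, Fn1, Postn, Hoxb1 and Hoxb4 are outside that rule and were chosen after their values were seen. The members and lists were chosen with earlier results of these data known. Some Hox symbols and other listed genes were not analysed here. Gene coordinates are from GENCODE M21 (GRCm38). Labels do not say more of the mice than their group, so p-values measure the spread between these samples. The number that opens each title's bracket is the same within each injured group, so whatever it marks cannot be told apart from the group.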

Additional observations from a re-analysis of the deposited data

Results flagged for a closer look

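In PBS mice at 1 wpi, replicate 2 lay far from the other 4 libraries in 5 of the 21 genes, by the gap to its nearest neighbour relative to the range of the group (Dixon's ratio, 95% critical value for 5 samples). It had 38.0 CPM of Col3a1 (others 12.4 to 17.9), 60.6 CPM of Col1a2 (others 33.4 to 39.8), 56.2 CPM of Col1a1 (others 27.2 to 32.8), 6.33 CPM of Lox (others 1.50 to 2.35) and 0.129 CPM of Ifi202b (others 0 to 0.0317). These 5 came from 42 groups of values examined. Of these, 2 were all 0 and could not be marked, those of Hoxc6 and Hmga1b in PBS mice. Chance alone marks about 1 in 20 of the other groups. The genes are not independent, since the same library is the high one each time. No value of an MSC library was marked, although replicate 2 was the lowest in 20 of the 21 genes. No gene passed the test of a difference between 1 and 3 wpi.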

How the results depend on the processing

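At 1 wpi the 21 genes kept their direction under every alternative that tested them. The count stayed within 1.5 times of 21 with DESeq2 size factors (22), no filter (19), at least 1 CPM in 5 libraries (14), DESeq2 (26, 1 of them lower), limma voom (23, 1 lower), a 2-fold minimum (17), counts not rounded (21) and the tissue covariates. A similar count does not mean the same genes. Of the 21 genes, 20 kept an adjusted p under 0.05 with DESeq2 and 13 with limma voom, where the other 8 lost it. It was 11 with the 1 week and Sham libraries alone and 0 with the 10 libraries of the comparison alone, with or without the replicate block; 11 to 27 with 1 library left out; and 29 without both replicates numbered 2, a setting chosen after seeing the data. With the replicate number as a block in all libraries the count was 17, all among the 21, with Col6a3 (adjusted p = 0.069), Angpt4 and Hmga1b (0.095 each) and Mfap5 (0.10) no longer under 0.05, and at 3 wpi it was 11. Same-numbered MSC and PBS libraries at 1 wpi had correlations of their deviations from the group means of 0.21, 0.0015, 0.12, 0.046 and 0.36, and 3 of 5 MSC libraries correlated best with their own number, so the numbers were not taken as pairs. The count of 14 at 3 wpi was 7 with the 1 CPM filter, 31 with DESeq2, 6 with limma voom, 0 with its own 9 libraries alone, with or without the replicate block, and 1 to 28 with 1 library left out. The difference between the weeks gave 0 genes in most settings, 6 with DESeq2, 0 to 7 with 1 library left out and 9 without both replicates numbered 2. The cause of these changes was not tested beyond the smaller number of libraries in the fits of single comparisons. Genes under about 1 CPM, such as the Hox genes, rest on small numbers of reads in each library.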
